A study of Mus musculus with 3 samples.

Results

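Transcripts of 10 regulators of ciliogenesis and of multiciliated or ependymal cell fate were examined in cultured mouse astrocytes. The genes were Foxj1, Rfx2, Rfx3, Rfx4, Mcidas, Gmnc, Ccno, Trp73, Myb and Foxn4, chosen by name for their known roles, and all 10 were found among the 19471 genes of the deposited table. The cells came from the cortex of wild-type (WT) pups at postnatal day 1 and were kept for 7 days in culture before poly(A) RNA was sequenced. There was 1 group of 3 libraries, called replicates 1, 2 and 3 here, made from pup 5, pup 6 and pup 8 and labelled as separate biological samples. The sample descriptions carry a day 0 name, while titles and age labels give day 1. The descriptions also mark all 3 libraries as Ctrl. No treatment or mutant allele is given beyond that label, so no contrast between conditions could be made.

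Motile cilia are built by a transcriptional cascade. The coactivators encoded by Gmnc and Mcidas lack a DNA-binding domain of their own and act with E2F4 or E2F5 to start the programme, in which centrioles are multiplied into basal bodies. FOXJ1 and the RFX factors then switch on genes of the axoneme, the microtubule core of the cilium. In the brain this programme belongs to ependymal cells, which line the ventricles and share radial glial ancestry with astrocytes, and to cells of the choroid plexus. A bulk culture pools all its cells, so fewer cells of a type and less RNA per cell cannot be told apart.

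RFX factors bind the X-box, a paired element in promoters of ciliary genes, with the core GTTGCC, which was looked for on both strands of promoters. The motifs were chosen after the promoter sequences were seen, so the counts describe these sequences and test nothing. RefSeq promoters (GRCm38.p6, 250 bases before to 50 after a start site) were at hand for 9 of the 10 genes, in 12 windows; Foxj1 had none in that table. The core was present in 5 of the 12 windows, against 12.5% of 32851 mouse promoters. It lay 219 bases before the start site of Ccno, 195 before that of Mcidas and 116 before that of Rfx2. In Rfx3 it lay 31 bases and in the upstream promoter of Trp73 2 bases after the start site, in the latter on the opposite strand. The 250 bases before the start site are shown for the 3 genes with a core there, 5′ to 3′ on the gene's strand, with the core in capitals. The windows of Ccno and Mcidas belong to neighbouring genes of 1 locus on chromosome 13. The windows are chr13:112987552-112987801 (plus strand) for Ccno, chr13:112993618-112993867 (plus strand) for Mcidas and chr17:56831009-56831258 (minus strand) for Rfx2.
Ccno: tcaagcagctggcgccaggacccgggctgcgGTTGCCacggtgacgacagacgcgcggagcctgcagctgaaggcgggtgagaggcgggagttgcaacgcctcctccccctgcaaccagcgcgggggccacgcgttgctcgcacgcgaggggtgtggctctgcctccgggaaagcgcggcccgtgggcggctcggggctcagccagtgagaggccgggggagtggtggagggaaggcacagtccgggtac
Mcidas: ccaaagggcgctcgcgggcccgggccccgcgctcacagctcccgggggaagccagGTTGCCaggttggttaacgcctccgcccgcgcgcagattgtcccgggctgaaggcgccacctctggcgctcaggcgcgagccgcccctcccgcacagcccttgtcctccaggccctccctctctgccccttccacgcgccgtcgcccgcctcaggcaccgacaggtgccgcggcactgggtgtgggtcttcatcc
Rfx2: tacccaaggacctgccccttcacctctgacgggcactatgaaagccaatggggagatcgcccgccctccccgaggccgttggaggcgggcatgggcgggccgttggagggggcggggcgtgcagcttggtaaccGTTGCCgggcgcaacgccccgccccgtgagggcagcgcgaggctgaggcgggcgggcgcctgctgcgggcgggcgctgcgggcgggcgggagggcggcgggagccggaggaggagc
In Ccno the core opens a match on the minus strand to a longer X-box form, GTNNCC followed after 2 bases by GGNAAC, which 1.29% of the mouse promoters held and no other window of the regulators did. The forkhead motif GTAAACA was found in 1 of the 12 windows, that of Myb, and in 3.65% of the mouse promoters. These matches describe letters in a window, and binding was not measured.

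All 10 regulators were expressed above a mean normalized read count of 10, the level used here for detection, which 71.6% of all genes in the table reached. Of the 10, 9 had a mean of 100 or more (54.3% of all genes) and 2, Foxj1 and Rfx4, a mean of 1000 or more (15.2%). Their median was 8.23 on the scale of log2(count + 1), against 7.20 over all genes. Normalized counts are reads divided by a library's size factor and are not divided by gene length.

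**Figure D1:**
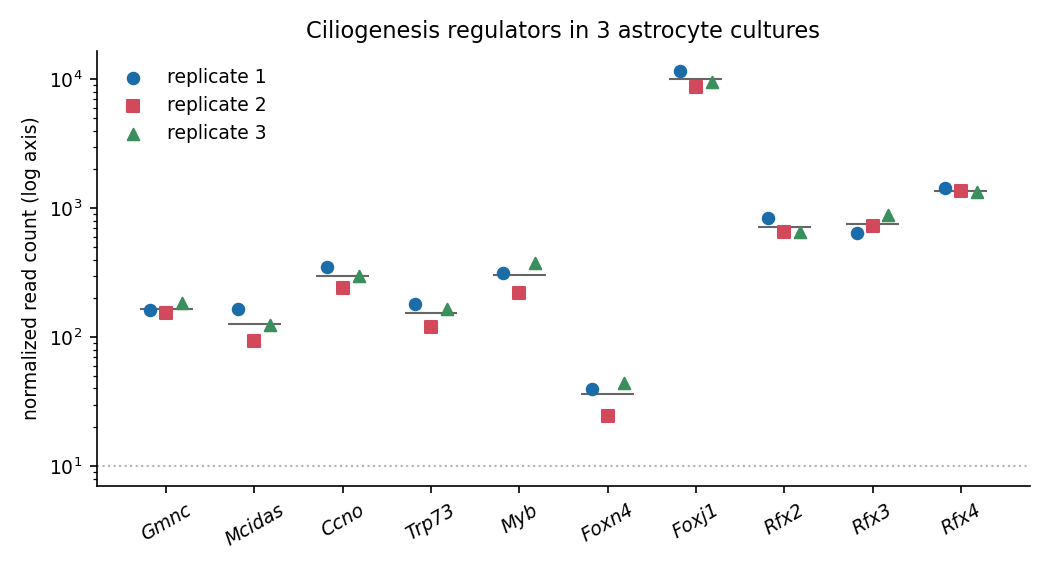
Normalized read count (log axis) of each regulator in replicates 1, 2 and 3, with a bar at the mean and a dotted line at 10. Foxj1 stands at 8764 to 11671, Foxn4 is lowest at 24.5 to 44.2, and every point lies above the dotted line.

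The initiating coactivators were transcribed at a modest level. Gmnc, which encodes GEMC1 and acts at the top of the cascade, gave normalized read counts of 163, 154 and 183 in replicates 1 to 3, listed in that order here and for the genes that follow, and averaged 167 ± 14.8 (SD, n = 3). Mcidas, the gene of multicilin, stood at 165, 92.9 and 124, a mean of 127 ± 36.2. The libraries lay close together for Gmnc, whereas for Mcidas replicate 1 was 1.78 times replicate 2. Mcidas rested on 104 to 203 reads per library.

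Ccno and Trp73 act beside and below the coactivators. Ccno encodes cyclin O, which is needed for the mass production of basal bodies, and its counts were 352, 239.6 and 297, a mean of 296 ± 56.3. Trp73 encodes p73, a p53 relative whose long form drives multiciliated differentiation, and it stood at 179.8, 120.3 and 165, a mean of 155 ± 31.0. Both had their lowest value in replicate 2 and their highest in replicate 1. Counts per gene do not separate the long and short forms of p73, and Trp73 shares 280 exon bases with Trp73os on the opposite strand. The kit marks strand, but the strand setting of the count is not given in the sources used here, so reads of such antisense pairs cannot be assigned with certainty.

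Ccno, Mcidas and Cdc20b lie in that order on the plus strand of chromosome 13 in mm10, at 112987802 to 112990777, 112993845 to 113000394 and 113035111 to 113091195. Cdc20b, a deuterosome-associated gene whose locus hosts the miR-449 family, had counts of 179, 126 and 163, with a mean of 156 ± 26.9. The 3 neighbours shared the order of libraries, replicate 1 over 3 over 2, which 12.5% of all detected genes showed. The order was not particular to the locus, being also that of 14 of 30 axonemal genes. Of the 4 regulators with this order, Ccno and Mcidas belong to the locus, while Foxj1 and Trp73 do not.

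Myb and Foxn4 are known as early factors of multiciliated cells, Myb at the onset of centriole amplification and also in blood progenitors, Foxn4 also in retinal and spinal progenitors. Myb counts were 315, 219 and 378, a mean of 304 ± 79.8. Foxn4 was the lowest of the 10, at 39.9, 24.5 and 44.2, a mean of 36.2 ± 10.4 from 37 to 52 reads per library. Replicate 2 was again lowest for both, and replicate 3 highest. Myb overlaps the antisense gene Gm26577 over 559 exon bases, but that gene had a mean of only 0.629.

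Foxj1, the forkhead factor that activates axonemal genes, exceeded every other regulator. Normalized read counts of Foxj1 were 11671, 8764 and 9465, averaging 9966 ± 1517 (SD, n = 3), and rested on 7915 to 18578 reads per library. Replicate 1 stood above the other libraries, which lay close to each other. It ranked 96 of 19471 genes by count and 77 per kilobase of exon. No stretch of 50 bases of its transcripts was shared with another annotated gene. In mm10 the gene lies on chromosome 11 from 116330704 to 116335399 on the minus strand, with 2623 bases of exon.

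Among the RFX factors Rfx4 was the highest. Rfx4, which is needed for dorsal midline and ciliary development in the brain and is also expressed by neural progenitors and astrocytes, had counts of 1427, 1352 and 1325, a mean of 1368 ± 52.6. Rfx3, a regulator of ciliary genes in ependymal and other ciliated cells, stood at 642, 732 and 878, a mean of 750.4 ± 119. Rfx2, which works with FOXJ1 on multiciliated targets, stood at 843, 654 and 651, a mean of 716 ± 110.0. Rfx4 hardly varied between the cultures, with an SD of 0.055 on the log2 scale, at the 13.7 percentile of the 3507 genes of similar mean (0.5 to 2 times its own). Rfx2 and Rfx3 ran in opposite order, Rfx2 highest and Rfx3 lowest in replicate 1.

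The regulators were then put in order by level, after division by exon length. Per kilobase, Foxj1 had a normalized count of 3799.6 ± 578 and Rfx4 289.6 ± 11.1. Ccno followed at 116 ± 22.0, Rfx2 at 97.9 ± 15.0, Rfx3 at 68.0 ± 10.8 and Mcidas at 53.6 ± 15.2. At the lower end were Myb at 34.0 ± 8.93, Gmnc at 29.0 ± 2.57, Trp73 at 28.0 ± 5.60 and Foxn4 at 10.7 ± 3.07. Foxj1 stood at the 99.4 percentile of detected genes on this scale, Rfx4 at the 84.3 and Foxn4 at the 12.5 percentile.

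**Figure D2:**
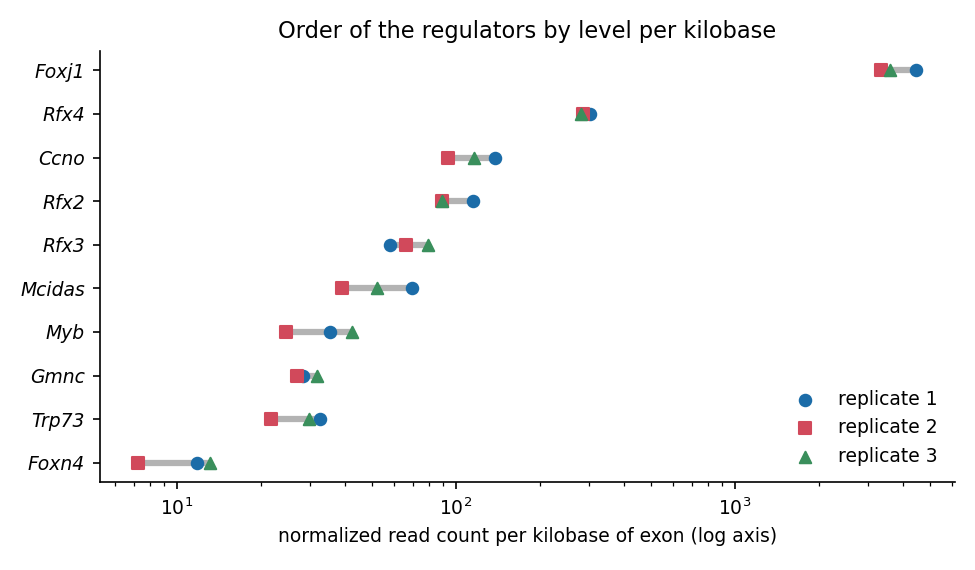
Normalized read count per kilobase of exon (log axis) of the 10 regulators in the 3 libraries, with a grey bar from the lowest to the highest library. Foxj1 at 3341 to 4449 is separated from Rfx4 at 280.5 to 302, while the bars of Myb, Gmnc and Trp73 overlap.

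Neighbours in this order were compared within libraries with limma, a linear model with variances shrunk over genes, on log2 differences per kilobase adjusted over all 13896 genes. Of the 9 neighbouring pairs, 4 were called at an adjusted p under 0.05. The adjustment ran over genes within a fit, not over the 9 pairs, and the order tested was taken from these same values. Foxj1 exceeded Rfx4 by 3.70 ± 0.19 (SE) on the log2 scale, or 13.0-fold (adjusted p = 3.86e-87, limma). All 9 other regulators lay below Foxj1 in that fit, as did 99.2% of all genes, while 0.417% lay above it. Rfx4 exceeded Ccno by 1.33 ± 0.11 (adjusted p = 7.00e-07, limma), with 81.9% of genes called below Rfx4. Rfx2 exceeded Rfx3 by 0.53 ± 0.18 (adjusted p = 0.00408, limma), with 51.5% called below Rfx2. Trp73 exceeded Foxn4 by 1.37 ± 0.29 (adjusted p = 2.57e-06, limma), with 20.2% called below Trp73.

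The remaining 5 pairs were not called with all exons as the length, which does not show that their levels are equal. The log2 difference was 0.24 ± 0.24 (SE) between Ccno and Rfx2, 0.36 ± 0.20 between Rfx3 and Mcidas and 0.66 ± 0.32 between Mcidas and Myb. It was 0.19 ± 0.31 between Myb and Gmnc and 0.068 ± 0.15 between Gmnc and Trp73. With the longest transcript as the length, Rfx3 over Mcidas, Myb over Gmnc and Gmnc over Trp73 were called (adjusted p = 0.00185, 0.0024 and 0.00515, limma), Rfx2 was called above Ccno by a difference of -0.54 for Ccno minus Rfx2 (adjusted p = 0.0286, limma), and Mcidas minus Myb was -0.62 (adjusted p = 0.0713, limma). The share of all genes called below the upper gene of these pairs was 54% for Ccno, 40.9% for Rfx3, 29.9% for Mcidas, 21.6% for Myb and 23% for Gmnc. All differences in a fit share the 3 values of the reference gene, so these p-values are too small. In a single simulated data set, genes set equal to the reference were called more often than the threshold allows. This also held with a separate variance for each gene, and a single draw does not measure an error rate. With a separate variance for each gene, an alternative added after seeing the data, the adjusted p was 0.00161 for Foxj1 over Rfx4, 0.0139 for Rfx4 over Ccno and 0.0182 for Trp73 over Foxn4 (limma without the prior), and the call for Rfx2 over Rfx3 ended (adjusted p = 0.186); without replicate 2 that call also ended (adjusted p = 0.0624, limma).

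Partners and targets of the regulators were expressed as well. All 5 partners of the coactivators were detected: the DNA-binding factors E2f4 at 469 ± 51.1 and E2f5 at 343 ± 37.5, their dimerization partners Tfdp1 at 1009 ± 37.0 and Tfdp2 at 1170 ± 166 (normalized counts), and Gmnn, the gene of the inhibitor geminin, at 229 ± 35.1. Per kilobase their median was 191, above the level of Mcidas and Gmnc. All 9 genes of centriole amplification were detected, led by Cep63 at 441 ± 10.7, Ccp110 at 409.9 ± 92.6 and Deup1, the core of the deuterosome, at 360.1 ± 64.3. The lowest were Sass6 at 69.0 ± 15.0, Ccdc78 at 26.0 ± 9.33 and Plk4, the kinase that starts centriole duplication, at 11.5 ± 1.75.

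Axonemal genes were all detected, and like nearly all genes they lay below Foxj1. All 30 genes of the motile axoneme list were detected and 25 had a mean of 100 or more, against 54.3% of all genes. The highest were Tppp3 at 2136 ± 459, Ccdc40 at 1240 ± 194, with values of 1348, 1016 and 1355, and the dynein heavy chain gene Dnah9 at 1099 ± 152. The lowest were Dnaaf11, listed under that newer symbol for Lrrc6, at 44.8 ± 12.7, Spag16 at 27.5 ± 9.32 and Spag17 at 21.6 ± 2.78. Per kilobase all 30 lay below Foxj1 (limma), in a fit that placed 99.2% of all genes there, with a median log2 difference of -5.58 against -5.72 over all genes. Tppp3 came nearest, with a log2 difference from Foxj1 of -1.73 ± 0.19 (SE), or 3.31-fold lower. The 14 genes of ciliary transport were all at a mean of 100 or more, from the retrograde motor gene Dync2li1, Ift80 and Kif3a at 1376 ± 220.1, 1712 ± 127 and 1352 ± 157 to Bbs4, Arl13b and Ift88 at 484 ± 18.9, 362 ± 41.4 and 282 ± 43.8.

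**Figure D3:**
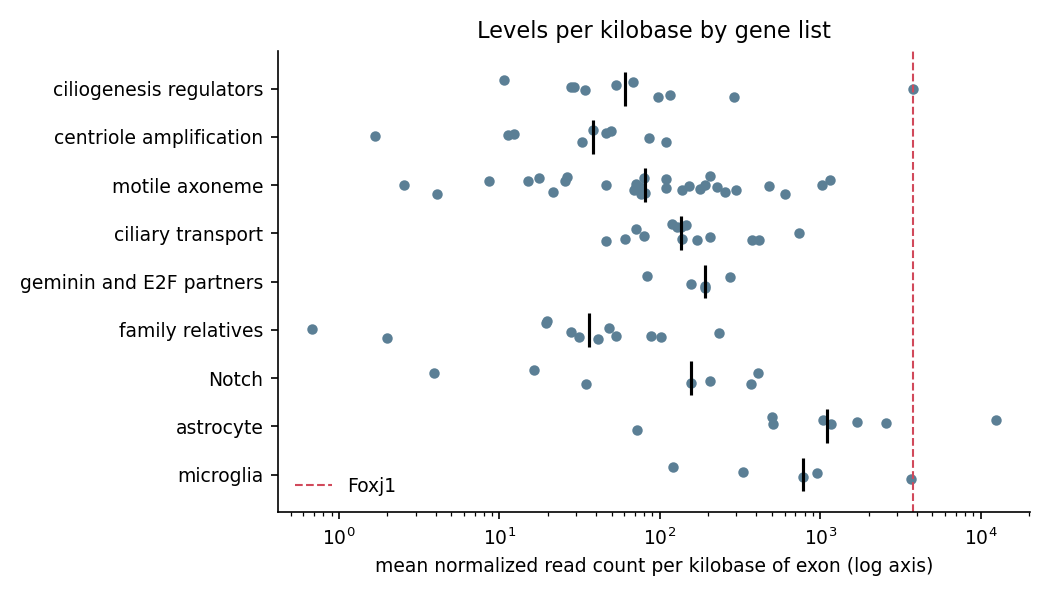
Mean normalized read count per kilobase of exon (log axis) of each gene, by list, with a black bar at the list median and a dashed line at Foxj1. Gfap is the gene right of the line, the microglial gene C1qa lies on it, and all axonemal, centriolar and transport genes lie to its left.

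The reads of most regulators differed between the 3 cultures by more than read sampling. A chi-square test of whole reads against library totals called 8 of the 10, where it called 55.4% of 13941 genes, so most genes differ by this measure. The test sets the difference between pups against counting noise alone, and genes with many reads are called most readily. Adjusted p ranged over the 8 from 2.35e-160 for Foxj1 to 0.0153 for Foxn4 (chi-square), and Rfx4 and Gmnc were not called (adjusted p = 0.0726 and 0.263), which does not show that they were stable. Without replicate 2 the number called was 4 of 10, namely Foxj1, Rfx2, Rfx3 and Mcidas, beside 40.2% of 13462 genes, a share of members at the background. The SD of log2 values was 0.40 for Myb and 0.41 for Mcidas, above 96.8% and 93.2% of genes of similar mean, and 0.21 for Foxj1, above 88.5%.

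Replicate 2 was the low library for most regulators and for axonemal genes. It held the lowest value in 7 of the 10 regulators, against 27.6% of detected genes. On the log2 scale its difference from the mean of the other libraries ran from -0.024 for Rfx4 to -0.75 for Foxn4. The share of all genes with a negative difference was not counted. The axonemal genes had their lowest value in replicate 2 in 30 of 30, with a median log2 difference of -0.57, against -0.35 for the regulators and 0.01 over all genes. Foxj1 differed by -0.26, less than any axonemal gene, whose differences ran from -1.14 to -0.30. The 5 detected ependymal genes outside the axoneme list had differences of -1.08, for Tmem212 on 11 to 21 reads per library, to -0.042. Among them Ccdc153 stood at 421, 210.4 and 336, while Mia was level in replicates 1 and 2 at 14.64, 14.62 and 15.5. In the other lists 6 of 9 centriole amplification genes (median -0.25), 10 of 14 ciliary transport genes (median -0.15) and 1 of 5 coactivator partners (median 0.03) were lowest in replicate 2, and E2f5 was highest there. Astrocyte markers were lowest in replicate 2 in 1 of 8, and their summed count was 109801 there against 101606 in replicate 1 and 88417 in replicate 3. Replicate 2 was the deepest library, and its part in these values was not tested.

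**Figure D4:**
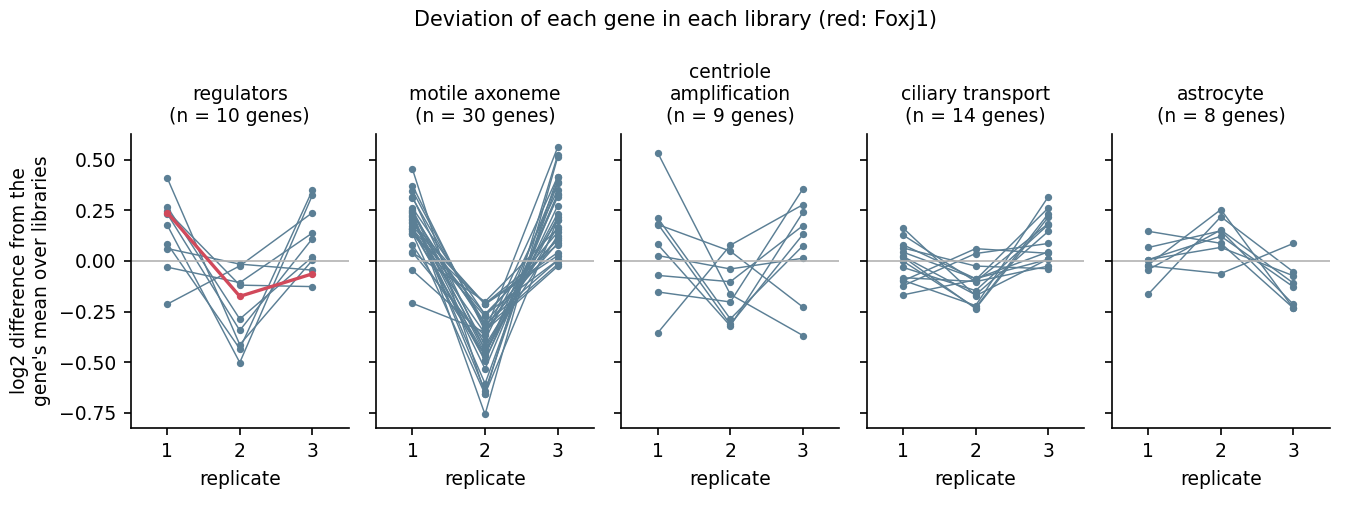
Log2 difference of each detected gene from its own mean over libraries, by replicate, for 5 lists; lines join the values of a gene and the replicates have no order. All 30 axonemal genes dip in replicate 2, and Foxj1 (red) and most regulators are lowest there. Foxj1 stands at 0.24, -0.17 and -0.064 in replicates 1 to 3. Of 8 astrocyte markers, 7 do not have their lowest value in replicate 2.

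Among 95 other list genes at or above a mean of 100, those nearest to Foxj1 in mean-centred log2 values over the 3 libraries were Rfx1, Rfx2 and E2f4, at Euclidean distances of 0.0517, 0.0842 and 0.0872. With 3 points per gene this is a description only. Replicate 1, the highest library for 6 of 10 regulators, Foxj1 among them, and for 35.2% of detected genes, was also highest for 5 of 5 microglial markers, whose summed count was 17307 against 13497 and 11096, and its count of Xist was 3000.5 against 0.472 and 4.78. The part of these in the results was not tested.

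The label of the cells was checked against marker genes, and other cells that use these regulators were looked for. All 8 astrocyte markers were detected, from Gfap at 52283 ± 6679 and the glutamate transporter gene Slc1a3 at 22003 ± 1902 to Slc1a2 at 946 ± 91.4. All 5 microglial markers were detected too, so the cultures did not hold astrocyte transcripts alone. Csf1r stood at 5517 ± 1362, C1qa at 3845 ± 936, Cx3cr1 at 3530 ± 660, Tmem119 at 768 ± 156 and P2ry12 at 308 ± 24.1. The ependymal list held Ccdc153 at 322 ± 106, Rarres2 at 282 ± 69.5 and 1700012B09Rik at 63.0 ± 19.9, and Mia, Tmem212 and Sntn at 14.9 ± 0.527, 13.6 ± 10.1 and 1.07 ± 1.22. Choroid plexus cells also carry multicilia. Of their 10 markers 7 were detected, led by Folr1 at 382 ± 45.5, Ttr at 201 ± 309 and Lmx1a at 159 ± 6.61, while Kl, Kcne2 and Prlr were at 2.74 ± 1.99, 2.18 ± 2.26 and 0.586 ± 0.511. Ttr was highest in replicate 2 at 557, against 31.7 in replicate 1 and 13.2 in replicate 3. Of the 7 detected choroid plexus markers, 3 were lowest in replicate 2, as most regulators were, namely Folr1, Otx2 and Lmx1a.

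Markers of other cell types known for single regulators were detected in part. Cajal-Retzius neurons express Trp73, and 3 of their 6 markers that have a row were detected, Reln at 108 ± 3.37, Ndnf at 84.6 ± 39.2 and Cacna2d2 at 23.4 ± 8.83. Calb2, Eomes and Ebf3 stood at 1.88 ± 1.69, 1.77 ± 1.34 and 0.984 ± 0.194. For Myb, the blood progenitor genes in the table were Cd34 at 593 ± 130.2, Kit at 91.3 ± 8.46 and Gata2 at 44.4 ± 2.42. For Foxn4, Tal1 stood at 60.3 ± 6.72. Per kilobase Cd34 stood at 81.4 against 34.0 for Myb, and Tal1 at 13.8 against 10.7 for Foxn4. The part of these cells in the levels of Trp73, Myb and Foxn4 was not tested.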

How the data were processed

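The deposited table holds a signal per gene, a read count that the authors divided by a size factor per library; DESeq2 and the build mm10 are named in the submitters' processing notes, while aligner, counter, strand setting and gene filter were not given in the sources used here. Library totals were 9858626 to 25128038 reads. In each library the deposited values came in steps of 1 read for 100% of genes (tolerance 0.05 reads), so whole reads were recovered and used for the chi-square test and in edgeR. The authors' mean column was not used.

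The regulators and lists were chosen with earlier results of these data known, and the motifs after the promoter sequences were seen. Named are the 10 regulators, partners and family relatives, the 3 highest and 3 lowest genes of each other list (by mean), and the 3 genes nearest Foxj1; some others were picked once their values were known, and not every gene the rule selects is printed. Genes were matched by symbol, else by identifier to GENCODE vM21 (mm10), which gave exon length for 99.5% of genes. List genes without a row were not analysed here.

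Levels were compared by limma, intercept-only with a trended prior, on within-library differences of log2(count + 1) minus log2(exon kilobases), two-sided, over genes whose mean reached 10. Reads were compared between libraries by chi-square for genes with a mean of 10 and 30 reads or more. Both were adjusted by Benjamini-Hochberg over all genes tested. The limma, edgeR and chi-square tests were tried on simulated data. Alternatives covered pseudocount, filter, length, scaling, edgeR and left-out replicates. No pair of libraries agreed within sampling noise (chi-square per degree of freedom 12.6 to 14.9). Each library is 1 pup, so animal, culture and preparation cannot be told apart. Python 3.11.15, pandas 2.3.3, R 4.3.3, limma 3.58.1 and edgeR 4.0.16 were used.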

Additional observations from a re-analysis of the deposited data

How the results depend on the processing

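The call of Foxj1 over Rfx4, of Rfx4 over Ccno and of Trp73 over Foxn4 held under all 11 alternatives run. All 30 axonemal genes lay below Foxj1 in each, where the main fit placed 99.2% of all genes. Without division by length, Ccno minus Rfx2 became -1.28, Rfx2 minus Rfx3 -0.067 and Mcidas minus Myb -1.25 on the log2 scale, with Rfx2 called above Ccno and Myb above Mcidas (adjusted p = 1.00e-07 and 0.000163, limma) and Rfx3 above Mcidas and Myb above Gmnc (adjusted p = 5.50e-38 and 0.01, limma). With the length of the longest transcript in place of all exons, Ccno minus Rfx2 was -0.54, Mcidas minus Myb -0.62, 7 of 9 pairs were called in the order of the report and Rfx2 was called above Ccno (adjusted p = 0.0286, limma). Both alternatives change the length used. With 1 replicate left out, Gmnc minus Trp73 ranged from -0.050, without replicate 2, to 0.20. With 1 replicate left out, 4 to 5 pairs were called, 40 to 65 genes lay above Foxj1 and 13744 to 13778 below it. Rfx3 over Mcidas was called without replicate 1 (adjusted p = 0.00602, limma), and Mcidas over Myb without replicate 2, with a pseudocount of 5 and in CPM (adjusted p = 0.0421, 0.0405 and 0.0218, limma). With 1 replicate left out, the chi-square test called 4 to 8 regulators, with 4 without replicate 2, and 4953 to 5415 genes in place of 7726, in fits with fewer samples. On whole reads, edgeR placed 59 genes above and 13784 below Foxj1 and called 4 of the 9 pairs. All 10 regulators kept a mean of 10 or more under each left-out replicate and above thresholds of 5 and 20. No pairing of samples between conditions was possible because the libraries form 1 group, while genes were compared within each library. Depth limits Foxn4 most, at 37 to 52 reads.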

Other observations

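Family relatives of the regulators that are not known for multiciliated fate ranged from near the floor to a mean of 944. Among RFX genes, Rfx1 stood at a normalized read count of 342 ± 49.1 (SD, n = 3), Rfx7 at 297 ± 33.5 and Rfx5, a regulator of class II histocompatibility genes, at 227 ± 16.5, while Rfx8 was near the floor at 1.46 ± 0.805. The forkhead genes Foxj2 and Foxj3 stood at 541 ± 8.18 and 532 ± 23.8, and Foxn2 and Foxn3 at 206 ± 43.8 and 229 ± 16.1. In the p53 family, Trp53 was at 944 ± 48.7, above Trp73, and Trp63 at 16.8 ± 4.19. In the MYB family, Mybl1 stood at 476 ± 124 and the cell cycle factor Mybl2 at 146 ± 15.3. Per kilobase the median of the 12 relatives in the table was 36.3, against 60.8 for the 10 regulators and 33.9 over all genes. Of the 11 detected relatives, 2 were lowest in replicate 2, Rfx1 and Rfx5, against 7 of the 10 regulators and 27.6% of detected genes.

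Notch signalling restrains multiciliated fate. Its receptor genes Notch2 and Notch1 stood at 4412 ± 137 and 2927 ± 268 and the target gene Hey1 at 1212 ± 26.6. The ligand genes Jag1 and Dll1 were at 202 ± 32.0 and 69.1 ± 3.30, Hes1 at 317 ± 73.0, and Hes5, a Notch target of neural progenitors, at 5.34 ± 2.02. Among the 6 detected genes of this list only Dll1 was lowest in replicate 2.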
